A study of Mus musculus with 4 samples.

Results

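Hepcidin transcript was 3.90-fold lower in the heart of mice with a heart and muscle deletion of mitochondrial superoxide dismutase than in control heart. Ferroportin transcript was 2.23-fold lower in that heart and 2.23-fold higher in muscle of the same genotype. These are among 9 mouse genes of iron uptake, export, storage and regulation examined here: Hamp, Slc40a1, Tfrc, Slc11a2, Fth1, Ireb2, Hfe, Slc25a28 and Uros. All 22 probe sets that the platform annotation gives to these genes alone were taken, of 45101 on the array, and the genes are 9 of 18193 named ones. The genes were chosen from the iron pathway with their signals on these same arrays already known. Every value below is therefore a description, with no test.

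Total RNA was hybridised to 4 oligonucleotide arrays, 1 for each genotype, d/d and f/f, in each tissue, heart and muscle. In d/d mice both floxed alleles of the MnSOD gene, Sod2, are deleted by Cre under the MCK promoter, which is active in heart and skeletal muscle fibres, so other cells of these tissues are not targeted by design. The f/f mice carry the same floxed alleles and serve as controls, and the labels do not say whether they carry Cre. The labels give no age, name no muscle, and do not say whether animals were pooled or whether 1 animal gave both tissues. With 1 array per group no difference has a replicate check, and in whole tissue fewer cells of a type and less RNA per cell cannot be told apart.

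Iron enters most cells as transferrin-bound iron through the transferrin receptor, is moved across endosomal membranes by the divalent metal transporter DMT1, is stored in ferritin, and leaves through ferroportin, the only known cellular iron exporter of mammals. Hepcidin, a peptide made mainly by the liver and in smaller amounts by the heart, binds ferroportin and causes its degradation. Inside cells the iron regulatory proteins bind hairpins called iron-responsive elements in the transcripts of ferritin, ferroportin, the transferrin receptor and DMT1, and change their translation or stability. Mitochondria take up iron to build haem and iron-sulfur clusters, and MnSOD removes superoxide, which can release iron from such clusters.

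The known control of hepcidin by iron and inflammation runs through elements just upstream of the gene, and the mouse has a near copy, Hamp2. The 250 bases before the start of each gene are shown for that reason, from RefSeq, build GRCm38.p6. They lie outside the transcript and do not bear on which transcripts a probe set reads. Hamp lies on the minus strand at chr7:30944030-30944279 for this stretch and Hamp2 on the minus strand at chr7:30924182-30924431. Capitals mark matches on either strand to the core of the element through which bone morphogenetic proteins (BMPs) act on the hepcidin gene, GGCGCC, and to the STAT site TTCNNNGAA, the kind through which interleukin-6 acts on it.
Hamp: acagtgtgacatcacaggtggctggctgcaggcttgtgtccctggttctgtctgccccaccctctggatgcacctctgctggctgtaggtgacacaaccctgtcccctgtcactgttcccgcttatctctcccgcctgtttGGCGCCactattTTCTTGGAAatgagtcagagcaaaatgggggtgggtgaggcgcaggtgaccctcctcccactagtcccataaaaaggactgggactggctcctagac
Hamp2: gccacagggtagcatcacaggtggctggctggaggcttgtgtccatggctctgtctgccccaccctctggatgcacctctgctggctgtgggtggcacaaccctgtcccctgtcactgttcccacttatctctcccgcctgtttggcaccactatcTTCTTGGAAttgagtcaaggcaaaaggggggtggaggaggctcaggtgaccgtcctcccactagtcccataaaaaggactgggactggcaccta

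These upstream stretches were identical at 227 of 253 aligned columns, or 89.7%. Hamp held 1 match to GGCGCC, beginning 109 bases before the start, and 1 match to TTCNNNGAA, beginning 97 bases before it. Hamp2 held the second, beginning 94 bases before the start, and not the first. Both motifs read the same on the opposite strand and do not overlap here. Of all 32851 windows of this length, 9.59% held GGCGCC, 7.02% held TTCNNNGAA and 0.368% held both. Of the other members with a window, Tfrc held GGCGCC in 1 of its 2 windows, and Fth1, Ireb2, Hfe, Slc25a28 and Uros held neither motif. A match describes these letters only.

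Arrays were scaled to a common trimmed mean, and signals under a floor of 7.51 were set to it before log2 was taken. The probe set of highest mean log2 signal stands for its gene. Genes are counted past a difference of 2-fold or more, provided that the array with more signal exceeds the floor. Of the 9 members, 3 were at least 2-fold lower in d/d heart, against 4.22% of 13836 genes measured there, and 0 were at least 2-fold higher, against 3.94%. In d/d muscle 1 of 9 was higher by 2-fold or more, against 2.64% of 14256 genes, and 0 were lower, against 3.25%. Since the members were picked with these differences known, nothing is read from their counts. Probe sets that read 1 gene disagreed with an SD of 0.437 in their log2 genotype difference in heart (6486 genes) and of 0.469 in muscle (6586 genes). That SD is the yardstick used here, and it holds no variation between replicate arrays or animals.

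**Figure D1:**
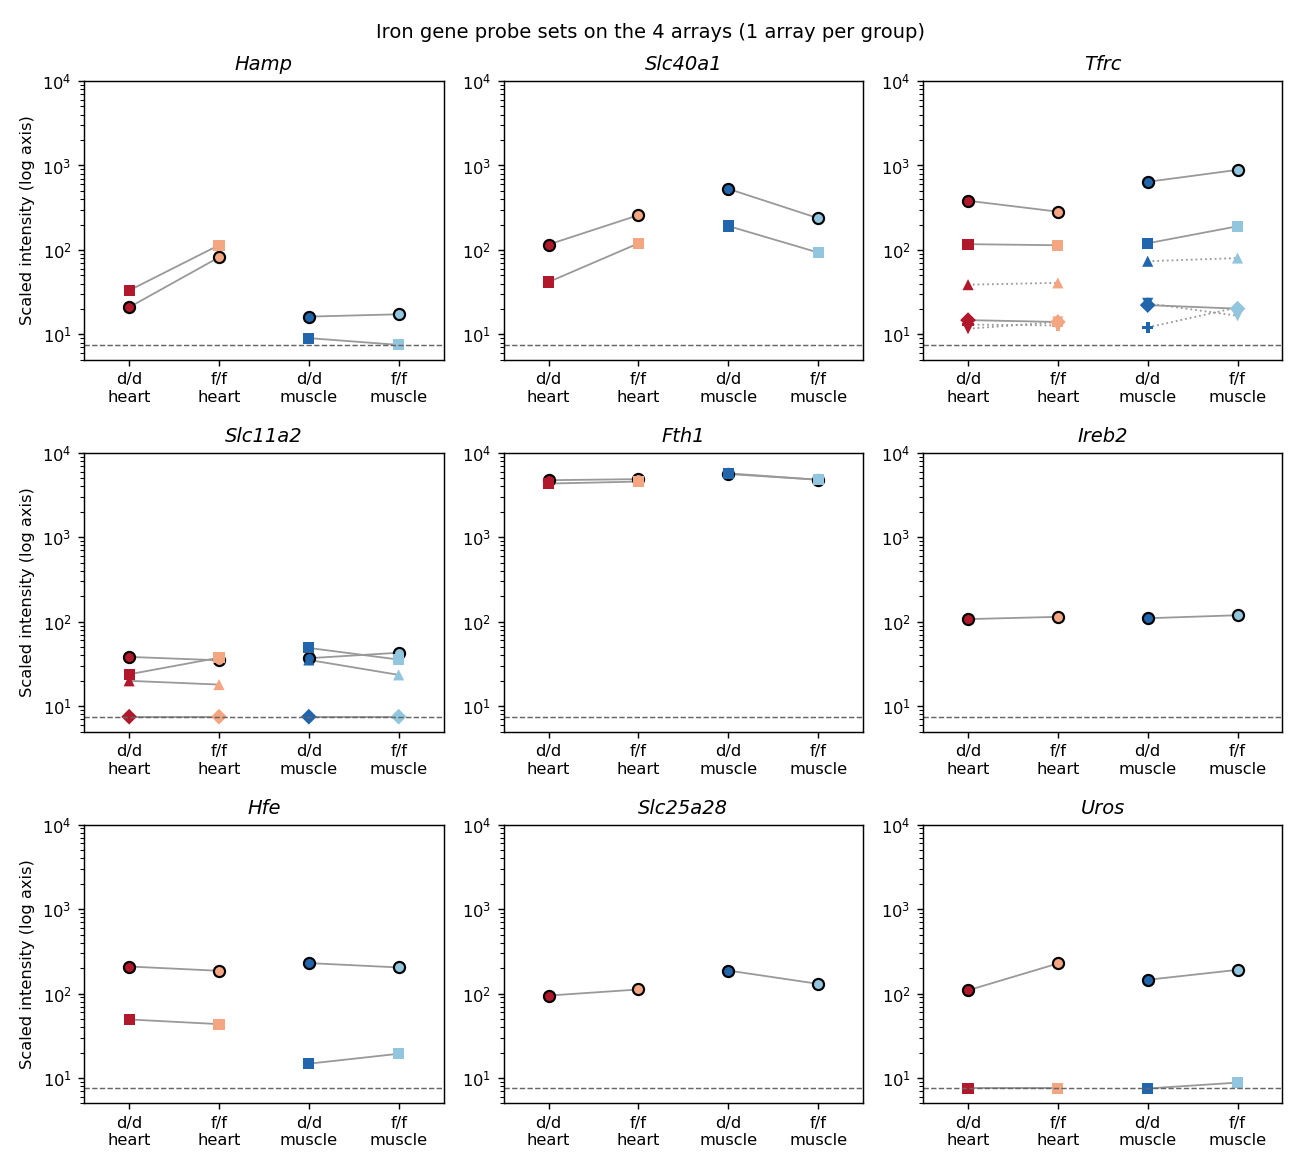
Scaled intensity (log axis) of every probe set of the 9 members on the 4 arrays, 1 array per group, where each marker shape is a probe set, lines join the arrays of a tissue, outlined markers show the probe set that represents the gene, dotted lines show the array's own Tfrc control probe sets, and the dashed line is the floor of 7.51, to which lower values were raised. Both Hamp probe sets are lower in d/d heart than in f/f heart, and both Slc40a1 probe sets are lower in d/d heart and higher in d/d muscle.

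Hamp encodes hepcidin. Its representing probe set, of a kind that can share sequence with other genes, read 20.9 in d/d heart against 81.8 in f/f heart, and 16.2 in d/d muscle against 17.3 in f/f muscle. The f/f heart stood above the other arrays, which lay close together. The second probe set, which carries no mark for shared sequence, read 33.1 in d/d heart against 114 in f/f heart, and 9.03 in d/d muscle, while f/f muscle was below the floor. Hamp was thus 3.90-fold and 3.44-fold lower in d/d heart, with a mean log2 difference of -1.87 (SD 0.13 between the 2 probe sets). In muscle the log2 differences were -0.09 and 0.27, the second with f/f muscle below the floor, so no difference was detectable there. In f/f mice Hamp was 4.73-fold higher in heart than in muscle on the first probe set and at least 15.2-fold higher on the second. In d/d mice these ratios were 1.29-fold and 3.67-fold.

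Hamp2 is not a member but bears on the reading of Hamp. Its probe sets read 4.42 and 6.36 in d/d heart, both below the floor, and 19.98 and 11.6 in f/f heart, so they were at least 2.66-fold and at least 1.54-fold lower in d/d. In muscle the d/d signals were 9.16 and 11.6 and both were below the floor in f/f. Both Hamp2 probe sets were thus close to the floor wherever they were measured, and whether Hamp RNA contributes to their signal was not tested.

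Slc40a1 encodes ferroportin. Its representing probe set read 116 in d/d heart against 258 in f/f heart, and 529 in d/d muscle against 238 in f/f muscle. The second probe set read 41.7 in d/d heart against 120 in f/f heart, and 192 in d/d muscle against 93.2 in f/f muscle. On both probe sets the d/d heart was the lowest array, the d/d muscle the highest, and the f/f arrays lay between them. In heart the difference was 2.23-fold and 2.87-fold lower in d/d, with a mean log2 difference of -1.34 (SD 0.26 between both sets). In muscle it was 2.23-fold and 2.06-fold higher in d/d, a mean of 1.10 (SD 0.08). The control tissues differed little, with log2 differences of 0.12 and 0.36 between f/f heart and f/f muscle. In d/d mice Slc40a1 was 4.57-fold and 4.60-fold lower in heart than in muscle.

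The log2 genotype difference of Slc40a1 in heart minus that in muscle was -2.31 and -2.56 on its probe sets. Of 12711 genes measured in both tissues, 17 were at least 2-fold lower in d/d heart and at least 2-fold higher in d/d muscle, or 0.134%, and Slc40a1 was the member among them. The reverse pattern held for 50 genes, or 0.393%, and for 0 members. The contrast of directions could not be tested, because each direction rests on 1 pair of arrays.

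**Figure D2:**
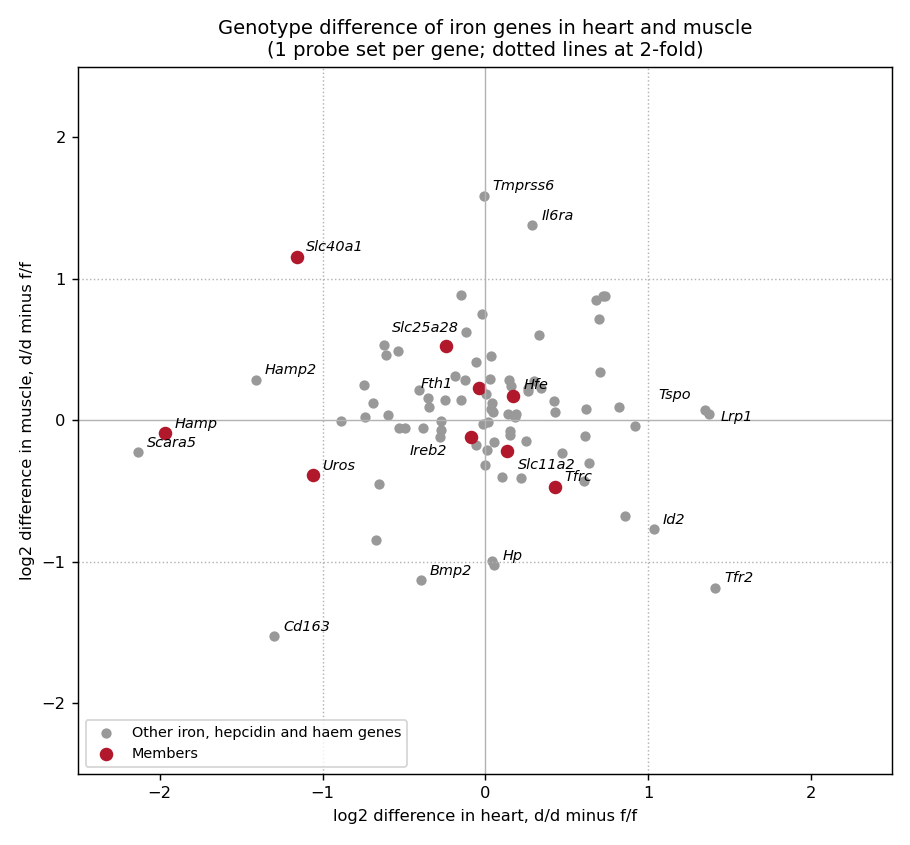
Log2 difference in d/d against f/f heart (horizontal axis) and in d/d against f/f muscle (vertical axis) for the measured iron, hepcidin and haem genes, 1 probe set per gene, with the 9 members in red and other genes in grey, where dotted lines mark 2-fold. Slc40a1 lies in the upper left corner at -1.16 and 1.15, Tfr2 in the opposite corner at 1.41 and -1.18, and Cd163 at the lower left at -1.30 and -1.53.

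Tfrc encodes the transferrin receptor, the main entry of iron, and its transcript is stabilised when iron regulatory proteins bind it. The representing probe set read 382 in d/d heart against 284 in f/f heart, and 641 in d/d muscle against 888 in f/f muscle. The log2 difference was 0.43 in heart and -0.47 in muscle, short of 2-fold in both and opposite in sign to that of Slc40a1. The next probe set by signal read 117 in d/d heart against 114 in f/f heart, and 120 in d/d muscle against 191 in f/f muscle. It thus showed the muscle difference, at -0.67, and not the heart difference, at 0.04. In f/f mice Tfrc was 3.13-fold lower in heart than in muscle on the representing probe set and 1.68-fold lower on the second.

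The array also carries 3 control probe sets placed at the 3′ end, the middle and the 5′ end of the Tfrc transcript, which describe both the gene and the length of the labelled RNA. The 3′ set read 38.8 in d/d heart against 40.7 in f/f heart, and 73.5 in d/d muscle against 80.2 in f/f muscle, with log2 genotype differences of -0.07 and -0.13. The middle set differed by 0.04 in heart and -0.79 in muscle, and the 5′ set by -0.27 and 0.49, all on low signals. The ratio of the 3′ to the 5′ signal was 3.33 in d/d heart against 2.90 in f/f heart, and 3.15 in d/d muscle against 4.83 in f/f muscle. Over all 6 Tfrc probe sets the mean genotype difference was 0.04 in heart (SD 0.23) and -0.24 in muscle (SD 0.50), so neither stood outside the spread between them. The same 3′ to 5′ ratio for Actb was 1.37 in d/d heart against 1.40 in f/f heart, and 1.11 in each muscle.

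Slc11a2 encodes DMT1, which carries ferrous iron out of endosomes and across the gut surface. Of its 4 probe sets 1 was below the floor on all 4 arrays. The representing probe set read 38.4 in d/d heart against 34.9 in f/f heart, and 37.0 in d/d muscle against 43.0 in f/f muscle. The others read 23.9 and 19.97 in d/d heart and 37.5 and 18.02 in f/f heart, and 49.0 and 35.3 in d/d muscle and 35.6 and 23.5 in f/f muscle. The probe sets disagreed in direction in both tissues, with log2 differences from -0.65 to 0.15 in heart and from -0.22 to 0.59 in muscle. The gene is known to make transcripts that differ in carrying an iron-responsive element, and the sources used here do not state which of them each probe set reads.

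Fth1 encodes the heavy chain of ferritin, which oxidises and stores iron and whose translation is blocked by iron regulatory proteins. Its representing probe set read 4740 in d/d heart against 4880 in f/f heart, and 5610 in d/d muscle against 4798 in f/f muscle. The second read 4324 in d/d heart against 4567 in f/f heart, and 5720 in d/d muscle against 4806 in f/f muscle. The heart differences were -0.04 and -0.08 on the log2 scale and the muscle differences 0.23 and 0.25, all within the yardstick. Both probe sets are of the kinds that can share sequence with related genes.

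Ireb2 and Hfe act in iron sensing. Ireb2 encodes an iron regulatory protein that is itself degraded when iron is plentiful, and its 1 probe set read 107 in d/d heart against 114 in f/f heart, and 110 in d/d muscle against 119 in f/f muscle. Its log2 differences were -0.09 in heart and -0.12 in muscle, so the arrays lay close together. Hfe encodes a partner of the transferrin receptors that promotes hepcidin production in liver and is mutated in human haemochromatosis. Its representing probe set read 209 in d/d heart against 186 in f/f heart, and 229 in d/d muscle against 204 in f/f muscle, a log2 difference of 0.17 in each tissue. The second, dimmer set read 49.3 in d/d heart against 43.4 in f/f heart, and 14.8 in d/d muscle against 19.4 in f/f muscle, at 0.18 and -0.39. None of these reached 2-fold.

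Slc25a28 acts in mitochondrial iron uptake and Uros in haem synthesis. Slc25a28 encodes mitoferrin-2, which brings iron into mitochondria of cells other than red cell precursors. It read 94.6 in d/d heart against 112 in f/f heart, and 187 in d/d muscle against 130 in f/f muscle, with log2 differences of -0.24 and 0.52. Its lowest array was d/d heart and its highest d/d muscle, as for Slc40a1, but at genotype differences of 1.18-fold and 1.44-fold. Uros encodes uroporphyrinogen III synthase, which closes the ring of the haem precursor. It read 109 in d/d heart against 227 in f/f heart, and 146 in d/d muscle against 191 in f/f muscle.

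Uros was 2.08-fold lower in d/d heart, just past 2-fold, and 1.31-fold lower in d/d muscle. Its second probe set was below the floor in both hearts and in d/d muscle and read 8.82 in f/f muscle, so the heart difference rests on 1 probe set. On the scale of log2(value + 16) the heart difference was -0.96, and with the median over both probe sets -0.53, which are both short of 2-fold.

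Between tissues, d/d heart exceeded d/d muscle by 2-fold or more for 0 of 9 members, against 15.1% of 14124 genes, and lay as far below it for 1, Slc40a1, against 10.5%. In f/f mice 1 of 9, Hamp, was at least 2-fold higher in heart than in muscle, against 12.1% of 14364 genes, and 1, Tfrc, at least 2-fold lower, against 8.3%. These tissue shares depend on scaling: with unscaled arrays the median gene was 0.45 higher in d/d heart than in d/d muscle and 0.47 higher in f/f, and genes at least 2-fold higher and lower numbered 3748 and 752 in d/d and 3420 and 667 in f/f, against 2134 and 1485 and 1741 and 1192 with scaling. The order of a gene's own arrays can also be read. For Slc25a28 the d/d muscle was highest, and the other arrays differed from their neighbours in the order by 1.17-fold or 1.18-fold. For Ireb2 and Fth1 all arrays lay within 1.32-fold of each other on each probe set.

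The 103 genes of a wider list of iron, hepcidin and haem genes, of which 96 were analysed here, showed no common shift. In heart, d/d exceeded f/f by 2-fold or more for 4 of 91 measured genes and lay as far below it for 6, with a median log2 difference of 0.03, beside -0.05 over all 13836 genes. In muscle, 3 of 93 were higher and 4 lower, with a median of 0.05, beside -0.003 over all 14256 genes. Over all genes the shares were 3.94% higher and 4.22% lower in heart, and 2.64% and 3.25% in muscle. The list holds the 9 members, which were chosen with these differences known. Members made 3 of the 6 lower in heart and 1 of the 3 higher in muscle, so the counts are not independent of that choice.

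Of the 17 uptake genes measured in heart, Tfrc and Slc11a2 among them, 1 was past 2-fold upwards in d/d and 1 downwards, with a median of 0.18. Scara5, a ferritin receptor, was the lower one, at 40.2 in d/d heart against 176 in f/f heart, 4.39-fold, while the muscle signals were 163 in d/d against 191 in f/f. Tfr2, a second transferrin receptor that senses iron in liver, was the higher one in heart, at 24.7 in d/d and 9.27 in f/f, and was at least 2.27-fold lower in d/d muscle, against 17.1 in f/f muscle. Both Tfr2 differences rest on low signals. Snx3, a sorting factor that recycles the transferrin receptor, read 797 in d/d heart against 1121 in f/f heart, or -0.49 in log2, and Exoc6, which acts on the same route, differed by 0.19.

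Of the 6 export genes, Slc40a1 alone passed 2-fold in either tissue, and the list medians were 0.17 in heart and -0.03 in muscle. Cp, the ferroxidase ceruloplasmin that works with ferroportin, read 435 in d/d heart against 353 in f/f heart, and 67.6 in d/d muscle against 55.9 in f/f muscle, with log2 differences of 0.30 and 0.27. Abcg2, which exports porphyrins and many drugs, differed by 0.61 in heart and -0.43 in muscle. Neither followed the direction of Slc40a1 in both tissues. Of the 4 measured storage genes and iron chaperones 0 passed 2-fold, with medians of -0.01 in heart and -0.04 in muscle, and Pcbp1 and Pcbp2, which deliver iron to ferritin, at 0.25 and -0.27 in heart. Of the 5 iron regulatory and hypoxia genes 0 passed 2-fold, although Hif1a read 908 in d/d heart against 481 in f/f heart, a difference of 0.92. The 3 other Hif1a probe sets measured in heart differed by 0.14 to 0.61. Aco1, the other iron regulatory protein, differed by 0.05 in heart and -0.16 in muscle, and Epas1 by 0.16 and 0.24.

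Of the hepcidin regulators, 2 of 19 were at least 2-fold lower in d/d heart, Hamp and Hamp2 themselves, and 0 were higher. Hjv, hemojuvelin, the BMP co-receptor that is abundant in muscle, read 487 in d/d heart against 815 in f/f heart, and 1978 in d/d muscle against 1661 in f/f muscle, with differences of -0.74 and 0.25. The BMP receptor gene Bmpr2 and the signalling gene Smad4 differed by 0.43 and 0.00 in heart. In muscle Tmprss6, a protease that cleaves hemojuvelin, was 3.01-fold higher at 28.9 in d/d and 9.62 in f/f, Il6ra, the interleukin-6 receptor, at least 2.60-fold higher at 19.5 in d/d and below the floor in f/f, and Bmp2 2.19-fold lower at 9.40 in d/d and 20.6 in f/f. These muscle differences, like those of Tfr2, rest on low signals. Bmp6, the main BMP signal to hepcidin in liver, was short of 2-fold and was picked out after its values were seen, at 165 in d/d heart against 102 in f/f heart, and 88.1 in d/d muscle against 53.7 in f/f muscle.

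Of 6 measured transcripts that BMP signalling is known to raise, 4 lay above 0 in heart and 4 in muscle, beside 45.4% and 49.6% of all genes. Their median log2 difference in heart was 0.66, and 1, Id2, was at least 2-fold higher at 112 in d/d and 54.8 in f/f. The other 2 measured Id2 probe sets differed by 0.33 and 0.72. Id3 read 431 in d/d heart against 264 in f/f heart, and Id1 376 in d/d heart against 428 in f/f heart. In muscle their median was 0.33, and 0 passed 2-fold on the representing probe set, although 1 other Id2 probe set differed by -1.60. Smad6, which restrains BMP signals, differed by 0.64 in heart and -0.30 in muscle.

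**Figure D3:**
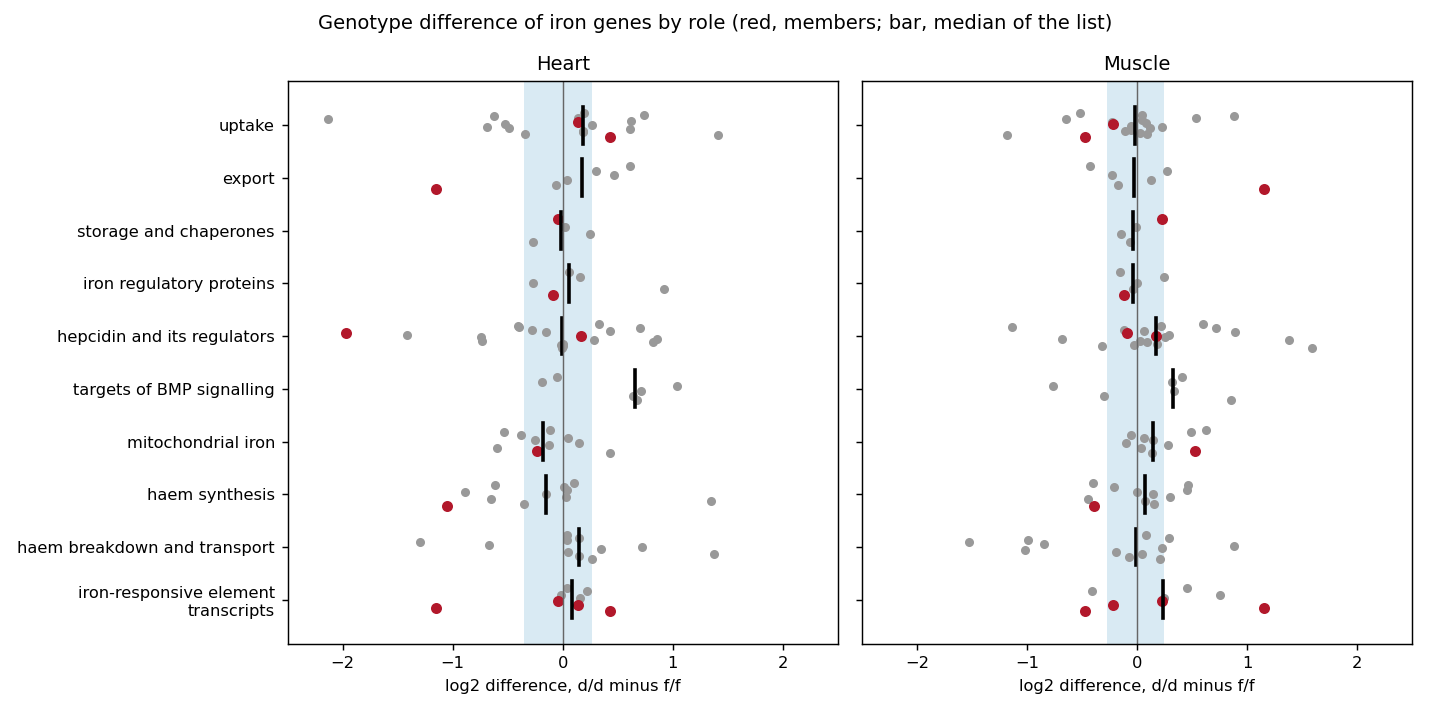
Log2 difference in d/d against f/f heart (left) and muscle (right) of each measured gene, arranged by role, with members in red, other genes in grey, black bars at the median of each list, and a pale band over the middle 50% of all measured genes, from -0.35 to 0.27 in heart and -0.28 to 0.25 in muscle. The list of BMP targets has the highest median in both panels, at 0.66 and 0.33, and Slc40a1 is the red point farthest from 0 in muscle.

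Of the 10 measured genes of mitochondrial iron and iron-sulfur assembly 0 passed 2-fold in either tissue. Their median was -0.18 in heart, with 7 below 0, beside 54.6% of all genes. In muscle it was 0.14, with 8 above 0, beside 49.6% of all genes. Isca1, Bola3 and Iscu, all of cluster assembly, differed by -0.25, -0.38 and -0.12 in heart and by 0.14, -0.06 and 0.28 in muscle. Slc25a28 lay on the same side as the list median in each tissue, but it is itself part of that list. Transcripts known to carry iron-responsive elements, which include Slc40a1, Tfrc, Slc11a2 and Fth1, had medians of 0.08 in heart and 0.23 in muscle over 8 measured genes, and Slc40a1 was the 1 past 2-fold in each.

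In haem synthesis, Uros was the 1 of 11 genes at least 2-fold lower in d/d heart. Tspo, a mitochondrial outer membrane protein that binds porphyrins, was the 1 at least 2-fold higher, at 309 in d/d and 121 in f/f, and its 2 other probe sets differed by 1.13 and 1.41. Alas1, the first enzyme of the pathway, differed by 0.01 in heart, and Urod and Fech, which act after Uros, by -0.35 and -0.15. In muscle 0 of 11 passed 2-fold. The list medians were -0.15 in heart and 0.07 in muscle. In haem breakdown and transport, the haem-haemopexin receptor gene Lrp1 was 2.60-fold higher in d/d heart, and Cd163, the macrophage receptor for haemoglobin, was 2.46-fold lower there and 2.88-fold lower in d/d muscle. Hp, haptoglobin, was 2.03-fold lower in d/d muscle, at 8.06 in d/d, close to the floor, and 16.4 in f/f. With unscaled arrays or median scaling Hp was not past 2-fold there. Hmox2, the constitutive haem oxygenase, differed by 0.34 in heart and 0.23 in muscle.

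By Euclidean distance between centred log2 signals over the 4 arrays, among 10537 other genes above the floor on all arrays, Lgals2, a galectin, Snai3, a transcription factor of the Snail family, and Angptl1, a secreted angiopoietin-like protein, were closest to Slc40a1, at 0.35, 0.36 and 0.42. Their log2 genotype differences were -1.15, -1.57 and -1.16 in heart and 0.90, 0.94 and 0.60 in muscle, all on signals under 60. Closest to Hamp were Gm10336, Inka2 and Pkd2l2, at 0.29, 0.36 and 0.39, with differences of -1.68, -1.68 and -2.20 in heart. With 4 arrays such nearness is a description only.

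Marker genes followed the tissue labels. Cardiac markers summed to 43467 (d/d) and 42466 (f/f) in the hearts, but to 3751 (d/d) and 4438 (f/f) in the muscles. Skeletal muscle markers summed to 4129 (d/d) and 4319 (f/f) in the hearts, but to 68153 (d/d) and 66180 (f/f) in the muscles. The bright skeletal markers Ckm, Tnni2 and Tnnt3 differed between genotypes by 0.03, 0.06 and 0.06 in muscle. Of 8 cardiac markers measured in heart 1, Ryr2, was past 2-fold on its representing probe set, 2.24-fold lower in d/d. Myh6 differed there by -0.07 on its representing probe set and by -1.26 on its other one. In d/d muscle 5 of 7 measured cardiac markers, Tnni3, Myh6, Mybpc3, Nppa and Tnnt2, were 2.51-fold to 10.5-fold lower than in f/f muscle, while the bright Actc1 and Myl3 differed by -0.01 and -0.23. Sod2 was lower in d/d heart on all 4 of its probe sets, by log2 differences of -1.22 to -0.21, and lower in d/d muscle on 3 of 4, from -0.44 to 0.06. The sources used here do not say which of these lie in the deleted part. Between 58.0% and 61.1% of probe sets lay above the floor on each array. All 3 control probe sets for 18S rRNA gave more signal in d/d than in f/f heart, by 0.71 to 1.37 in log2, and 40 of 42 spike-in control probe sets were higher there, with a median of 0.31, against 11 of 42 and -0.11 in muscle. Their part in the results was not tested.

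Markers of other cells moved with genotype, and their values are given beside the members for that reason. All 10 measured macrophage markers were above 0 in d/d heart, with a median log2 difference of 0.54, and their summed signal was 3027 in d/d heart against 2303 in f/f heart. Cx3cr1 was 2.90-fold and Cd14 2.07-fold higher there, while the bright Lyz2, Csf1r and C1qb differed by 0.03, 0.37 and 0.55. Another Cx3cr1 probe set differed by -0.20 in heart. The 2 others of Csf1r differed there by -0.05 and 0.09, and the 2 others of C1qb by 0.49 and 0.89. All 9 measured in muscle were below 0, with a median of -0.61 and sums of 782 in d/d and 1208 in f/f. On their representing probe sets, these macrophage markers thus differed in the direction opposite to Slc40a1 in both tissues. Markers of iron-recycling macrophages, which hold much ferroportin, had a median of -0.46 in heart, with 4 of 5 measured below 0, the direction of Slc40a1 there. Cd163, Timd4, Marco and Vsig4 lay below 0, at -1.30, -0.46, at least 0.48 lower and -0.29, and Vcam1 above it at 0.50. The 2 other Vcam1 probe sets measured in heart differed by -0.48 and 0.24. In muscle 3 of 4 measured lay below 0, with a median of -0.34, the direction opposite to Slc40a1. The list summed to 216 in d/d heart against 229 in f/f heart, of which Vcam1 made 141 in d/d and 99.9 in f/f, and to 63.0 in d/d muscle against 114 in f/f muscle. Spic and Siglec1 were at the floor on all arrays.

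Beside Hamp, hepatocyte markers summed to 54.2 in d/d heart against 96.2 in f/f heart, 5 of 5 measured below 0, with Alb and Fgb at the floor in both hearts and Ahsg at least 2.90-fold lower in d/d. In muscle they summed to 49.8 in d/d and 44.4 in f/f, and Alb was at least 2.42-fold higher in d/d. Apoa2, Ttr and Tat, the brightest of them, differed by -0.32, -0.69 and -0.32 in heart. The 3 other Ttr probe sets measured in heart went the other way, from 0.18 to 0.42. The count of 5 below 0 thus rests on the representing probe sets, and all these hepatocyte signals were low. Atrial markers had a median of -0.72 in heart, with 5 of 6 below 0. Bmp10 was 3.11-fold lower at 7.69 in d/d and 23.9 in f/f, Kcnj3 2.43-fold lower, and Myl7 and Myl4 differed by -0.83 and -0.25. The other Myl4 probe set differed by -1.44 in heart. Nppa, the brightest atrial marker and also one of the cardiac list, went the other way, at 6781 in d/d heart against 3658 in f/f heart, so the list summed to 9663 in d/d heart against 8052 in f/f heart. In muscle 2 of 5 measured were past 2-fold, Nppa 4.14-fold and Sln 3.66-fold lower in d/d. The part of these differences in the Hamp values was not tested. On their representing probe sets, fibroblast markers were above 0 in heart for 7 of 7 and below 0 in muscle for 7 of 7. Col1a1, Col1a2 and Pi16 were past 2-fold in both tissues on those probe sets, though not on all their others. The bright Dcn and Lum differed by 0.55 and 0.39 in heart and by -0.25 and -0.12 in muscle. Endothelial markers had medians of 0.42 and 0.03, with Emcn, Pecam1 and Egfl7 at 0.76, 0.42 and 0.42 in heart. Red cell markers summed to 91.5 in d/d heart against 114 in f/f heart, and 73.1 in d/d muscle against 64.3 in f/f muscle, with 0 past 2-fold, and Alas2 and Slc4a1 differed by 0.03 and -0.94 in heart, where Hba-a1 was at the floor in d/d and read 11.6 in f/f.

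All 3 measured adipocyte markers were below 0 in heart, with a median log2 difference of -0.37. In muscle 2 of 3 were below 0, with a median of -1.20. Fabp4, by far the most of the summed signal, read 3369 in d/d heart against 3799 in f/f heart, and 3038 in d/d muscle against 2651 in f/f muscle. Adipoq was 4.47-fold lower in d/d heart and 2.30-fold lower in d/d muscle, and Retn differed by -0.37 in heart and was at least 3.05-fold lower in d/d muscle. Lep and Cidec were at the floor throughout. The part of these cell types in the iron gene differences was not tested.

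**Figure D4:**
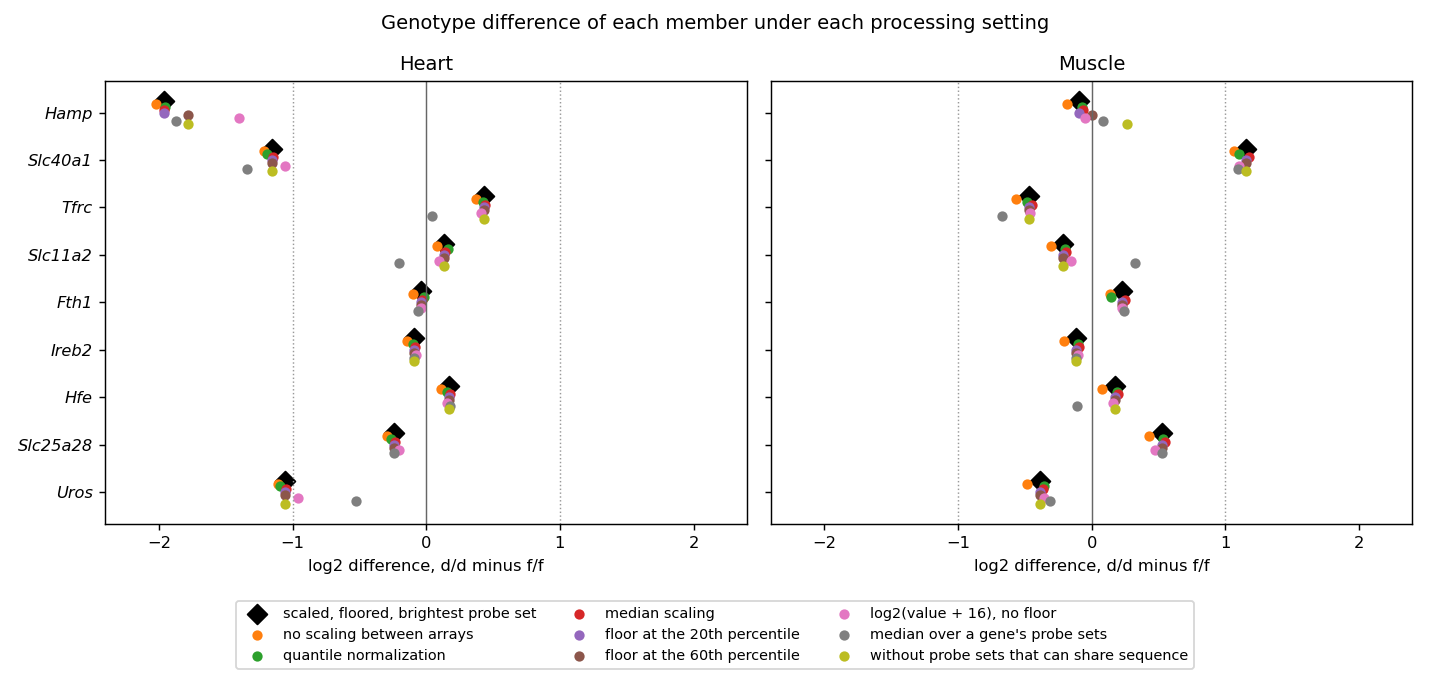
Log2 difference in d/d against f/f heart (left) and muscle (right) of each member under the processing used here (black diamond) and 8 alternatives (coloured points), with dotted lines at 2-fold. Hamp in heart ranges from -2.02 to -1.40 and Slc40a1 from -1.34 to -1.06 in heart and 1.06 to 1.18 in muscle, all past 2-fold, while Slc11a2 lies on both sides of 0 in both tissues.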

How the data were processed

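RNA from d/d and f/f heart and muscle was measured on 4 one-colour oligonucleotide arrays, 1 per group. The deposited values are linear intensity per probe set, and the sources used here do not state how the authors summarised and normalized them. Their trimmed means, 48.2 to 69.2, and maxima, 8460 to 9375, differ between arrays. Gene names came from GEO's platform annotation: 34945 had 1 gene symbol, 932 several and 9160 none, beside 64 array controls.

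Each array was scaled to a common mean after trimming 2% from each tail, with controls left out. The floor is the mean of the arrays' 40th percentiles. No test was made, since each group has 1 array, and the number of arrays limits the precision. The 9 genes and all lists were chosen with earlier results of these data known. Named are every member probe set, genes of the wider lists past 2-fold between genotypes, up to 3 examples per list by mean signal, the nearest 3 genes to Hamp and Slc40a1, and of each marker list the brightest 3 and those past 2-fold. Motifs were searched with Python 3.11.15 and numpy 2.4.6 in RefSeq windows of GRCm38.p6. The procedure was tested on simulated data. The 8 alternatives concerned scaling, the floor, the pseudocount and the choice of probe set.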

Additional observations from a re-analysis of the deposited data

Results flagged for a closer look

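Slc40a1, the exporter ferroportin, was picked out because its d/d against f/f difference passed 2-fold in opposite directions in the 2 tissues, at -1.16 in heart and 1.15 in muscle, a gap of -2.31 on the log2 scale. Tfr2 showed the reverse, at 1.41 in heart and -1.18 in muscle, a gap of 2.60, but its other probe set measured in muscle differed by -0.01. Among the marker genes of fibroblasts, the collagen genes Col1a1 and Col1a2 and the gene Pi16 were also higher in d/d heart and lower in d/d muscle, with gaps of 3.07, 2.89 and 2.77. The other Col1a1 probe set differed by 0.69 in heart and -0.18 in muscle. For Col1a2 the other set measured in heart differed by 2.32, and the 2 measured in muscle by -1.16 and -0.01. The other Pi16 set differed by -0.04 in heart and was not measured in muscle. For each of these 5 genes the difference was not tested, because each direction rests on 1 pair of arrays.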

How the results depend on the processing

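Hamp and Slc40a1 stayed past 2-fold lower in d/d heart, and Slc40a1 past 2-fold higher in d/d muscle, under all 8 alternatives. Uros lost its place in heart with log2(value + 16) and with the median over probe sets, which left 2 members lower there. Of 636 recomputed values, 606 stayed within the SD between probe sets of a gene (counts, within 1.5 times), 30 moved further, and 0 values past 2-fold changed sign. That SD describes 1 gene and is a loose bound for the median of a list. The wider list's median for d/d heart over d/d muscle went from -0.06 to 0.40 unscaled and still counted as within it. Values short of 2-fold did change sign: Slc11a2 in muscle ranged from -0.31 to 0.32 and Hfe in muscle from -0.11 to 0.20. Between d/d heart and d/d muscle, 2 members were lower (Slc25a28 besides Slc40a1) under quantile normalization and median scaling, and 1, Hamp, was higher with the median over probe sets and without probe sets that can share sequence. With that median 0 members were lower in f/f heart than f/f muscle, since Tfrc fell short of 2-fold. Counts over the wider iron list moved with the treatment of low signals. In heart the 4 higher genes became 7 with a floor at the 20th percentile, and 2 with one at the 60th, with log2(value + 16) and without shared probe sets, while the 6 lower became 3 with log2(value + 16). In muscle the 3 higher became 8 with the low floor and 1 with the high floor or log2(value + 16), and the 4 lower became 10, 1 and 1. Over all genes the higher and lower counts in heart, 545 and 584, became 1497 and 1921 with the low floor, 320 and 249 with the high one and 223 and 167 with log2(value + 16). In muscle 376 and 463 became 1663 and 1766, 56 and 107, and 47 and 83, and 203 and 450 unscaled. The f/f tissue split, 1741 higher and 1192 lower, became 1435 and 1479 under median scaling. Apart from what the settings themselves change, the cause was not tested. Fth1 and Slc25a28 have no value without shared probe sets. No paired analysis was possible because each group has 1 array. Low signal over background limits Hamp in muscle, Hamp2 in both tissues, Tfr2 and the second Uros probe set. The size of the Hamp difference in heart also rests on a low d/d signal, 20.9 on the representing probe set. It ranged from -2.02 to -1.40 over the alternatives.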
